A study of Mus musculus with 2 samples.

Results

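Interferon-stimulated genes and immunity GTPases were followed in regulatory T (Treg) cells sorted from injured mouse muscle. The members were 41 genes chosen by symbol, each found as a row among the 23337 rows of the count table, and they fell into 20 antiviral effectors, 6 interferon-gamma induced GTPases and 15 sensors, regulators and other induced genes. The library here called IL-33 came from muscle injected with cardiotoxin and 0.3 ug of rIL-33, the recombinant cytokine, and the library called PBS from muscle injected with cardiotoxin and PBS. Both came from 8-week-old male Foxp3-IRES-GFP/C57BL/6 mice, with Treg cells sorted 4 days after injury, and whether muscles or mice were pooled is not given in the labels. Cardiotoxin, which destroys muscle fibres, was given to both groups, so uninjured muscle was not compared. Each group held 1 library of 5000 sorted cells, so there was no replicate check and no test, and "higher" and "lower" compare these 2 libraries, not the treatments.

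Interferons are secreted alarm proteins. Type I interferons act through a complex that holds STAT2 and IRF9 and binds the interferon-stimulated response element (ISRE), and interferon-gamma acts through the gamma-activated site (GAS) and through induced IRF1. Antiviral effectors, such as the IFIT, Mx and OAS proteins, are classical targets of type I interferon, while the guanylate-binding proteins (GBP) and immunity-related GTPases (IRG), which act on the vacuoles of intracellular pathogens, are classical targets of interferon-gamma. Many members answer to both interferons.

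Promoters of several antiviral effectors and GTPases hold letters of the kind these factors bind, and stretches of 3 GTPases, 4 effectors and Isg15 are printed to show how such letters are arranged in each class. Promoter windows of RefSeq on GRCm38.p6, from 250 bases before to 50 bases after each start, were matched by symbol for 31 of the 41 members. The table had no entry for Mx1, Mx2, Oas2, Zbp1, Dhx58, Usp18, Parp9, Parp14, Rtp4 and Ifi27l2a. The ISRE core was searched as GAAA, any 2 bases and GAAA again, and the GAS core as TTC, any 3 bases and GAA, on both strands, and overlapping matches were kept. The stretches below are written on the strand of the gene, with motif letters in capitals.
Igtp, chr11:58199491-58199551, plus strand: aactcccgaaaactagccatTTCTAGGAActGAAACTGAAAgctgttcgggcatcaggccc
Irgm2, chr11:58214882-58214942, plus strand: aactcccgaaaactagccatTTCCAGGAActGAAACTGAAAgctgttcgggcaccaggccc
Gbp7, chr3:142530210-142530312, plus strand: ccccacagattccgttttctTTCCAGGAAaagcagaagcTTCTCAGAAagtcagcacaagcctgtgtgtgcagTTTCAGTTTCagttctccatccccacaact
Ifit1, chr19:34640765-34640833, plus strand: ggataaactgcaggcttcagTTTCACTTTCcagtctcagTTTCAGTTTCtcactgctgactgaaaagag
Ifit3, chr19:34583353-34583436, plus strand: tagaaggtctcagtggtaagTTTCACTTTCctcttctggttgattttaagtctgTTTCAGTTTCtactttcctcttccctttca
Oas3, chr5:120777705-120777754, minus strand: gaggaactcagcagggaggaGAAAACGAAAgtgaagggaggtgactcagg
Bst2, chr8:71537567-71537628, minus strand: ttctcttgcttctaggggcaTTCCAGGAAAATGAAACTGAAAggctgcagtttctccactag
Isg15, chr4:156200855-156200916, minus strand: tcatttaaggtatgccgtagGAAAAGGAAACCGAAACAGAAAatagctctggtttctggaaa

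An ISRE core was present in the windows of 19 of the 31 members (61.3%), against 3.99% of the 27025 genes in the promoter table. A GAS core was present in 12 of the 31 (38.7%), against 9.55% of all genes. All 6 GTPases had an ISRE core and 3 of them, Gbp7, Igtp and Irgm2, had a GAS core as well. Of the 16 antiviral effectors with a window, 9 had an ISRE core, 8 a GAS core and 4 both. Ifit1 and Ifit3 each carried an ISRE core at 2 separate places, Isg15 carried 3 overlapping ones, and the GAS and ISRE cores of Bst2 overlapped. The stretches of Igtp and Irgm2 were identical at 59 of 61 bases. The differences were T24C and T54C, with positions counted from 1 at the 5′ end of the stretch and the base of Igtp given first. Among members over the level floor used below, the 18 with an ISRE core had a median log2 fold of 0.04 and the 10 without one a median of 0.06.

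**Figure D1:**
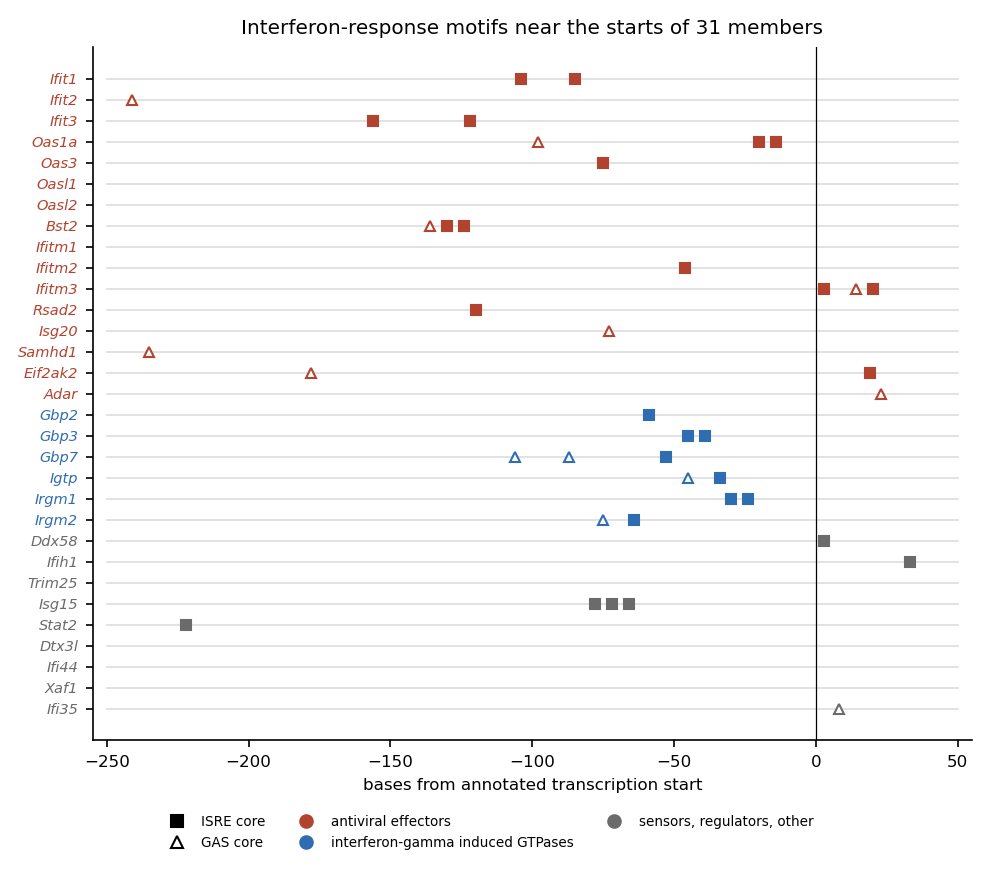
Positions of ISRE cores (filled squares) and GAS cores (open triangles) in bases from the annotated start, for the 31 members with a promoter window, coloured by class. For genes with several annotated starts, matches of all windows are drawn, each from its own start. All 6 GTPase rows carry an ISRE core before the start.

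Sequencing depth differed between the libraries. The IL-33 library held 4080791 counts and the PBS library 1573707, a ratio of 2.59, so 1 count was worth 0.245 CPM (counts scaled to a library total of 1000000) with IL-33 and 0.635 CPM with PBS. All 11 Treg markers were over the floor used below in at least 1 library, and the checkpoint receptor gene Ctla4 had 6186 CPM with IL-33 and 6246 CPM with PBS. Ikzf2, the transcription factor Helios, stood at 1681 and 1925 CPM. Foxp3, the gene that defines Treg cells, rested on 40 counts with IL-33 and on 1 with PBS. Of the fixed markers of other cells, monocyte and macrophage markers without Ccr2, which T cells also express, summed to 54.2 CPM with IL-33 and 73.1 CPM with PBS, and Cd68 and Fcgr1 had 0 counts in both. Ccr2 itself stood at 2886 and 1987 CPM, and Lyz2, a lysozyme gene of myeloid cells, at 19.1 and 38.8 CPM. Dendritic cell markers summed to 27.7 CPM with IL-33 and 94.7 CPM with PBS, with 4 of 10 at 0 in both. They were led by the MHC class II gene H2-Aa at 4.41 and 61.6 CPM and by Xcr1 at 10.3 and 7.63 CPM. Of the 5 over the floor, 2 were higher and 3 lower with IL-33. Fibroblast, muscle and endothelial markers summed to 49.5 and 119 CPM, with 6 of 12 at 0 in both. They were led by Pecam1 at 48.5 and 45.1 CPM and by the collagen gene Col3a1 at 0 and 49.6 CPM. Neutrophil markers (led by Cxcr2 and Csf3r) summed to 18.6 and 32.4 CPM and CD8 T and NK cell markers (led by Cd8b1 and Prf1) to 22.3 and 15.9 CPM. The B cell marker Cd79b had 29.7 CPM with IL-33 and 23.5 CPM with PBS. Several members are also expressed by myeloid cells and fibroblasts, and the part of such cells in the values below was not tested. In bulk samples fewer cells of a type and less RNA per cell cannot be told apart.

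Members were found on both sides of equality. Members reaching 5 CPM in at least 1 library, the floor for comparison, numbered 38 of 41, and their median log2 fold of IL-33 over PBS, taken on CPM + 1, was 0.06, against -0.08 over all 9005 genes at that floor. At 2-fold or more, 7 of the 38 members (18.4%) were higher, where 15.5% of all genes were, and 3 (7.89%) were lower, where 16.3% of all genes were. Both shares are read against a background in which thinly counted genes differ often: 56.7% of genes averaging under 20 CPM differed by 2-fold or more in either direction, 30.9% at 20 to 50 CPM, 10.9% at 50 to 200 CPM and 2.22% at 200 CPM or more. The members called were 3 of 5 in the lowest of these ranges, 4 of 7 in the next, 3 of 17 in the third and 0 of 9 in the highest. A 95% counting interval of the ratio that left out 1 was found above 1 for 14 of the 38 members (36.8%), against 28.6% of all genes, and below 1 for 8 (21.1%), against 35.1% of all genes. These intervals cover counting error only, not variation between mice. Amplified reads without molecular identifiers are not independent molecules, so the intervals can be too narrow even for counting error.

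**Figure D2:**
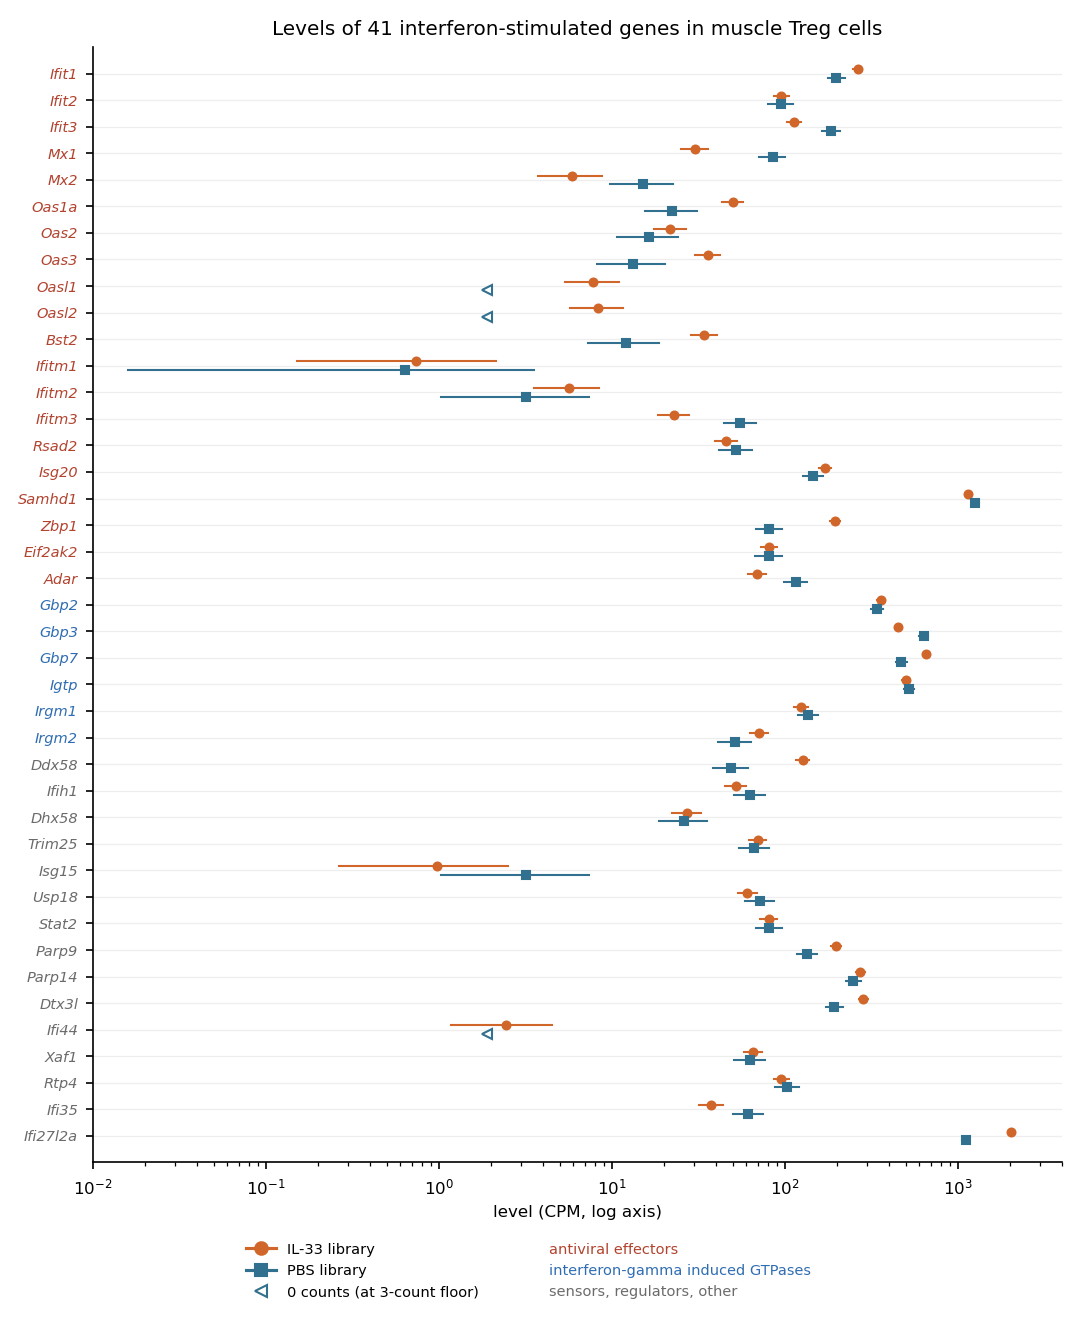
Level of each of the 41 members in CPM (log axis) with IL-33 (circles) and with PBS (squares), with exact 95% Poisson counting intervals as lines. Open triangles mark 0 counts, drawn at the level that 3 counts would have, and gene names are coloured by class. Samhd1 and Ifi27l2a lie above 1000 CPM in both libraries, while Ifitm1, Isg15 and Ifi44 lie under the floor.

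Effectors lay on both sides of the 2-fold lines and the GTPases between them. Of 19 effectors over the floor, 6 (31.6%) were higher at 2-fold and 3 (15.8%) lower, where 15.5% of all genes were higher and 16.3% lower. Their median log2 fold was 0.23. Of the 6, Oasl1 and Oasl2 had 0 counts with PBS and passed the floor through the IL-33 library, so they could only be called higher. The other 17 effectors had log2 folds between -1.46 and 1.43. Of 6 GTPases, 0 were called in either direction, with log2 folds between -0.49 and 0.47 and a median of 0.01. The classes also differ in how well they were counted, with a median over members of 49.0 CPM for the effectors and 431 CPM for the GTPases, and well-counted genes are seldom called. Of the GTPases, 4 averaged 200 CPM or more, where 2.22% of all genes were called in either direction. The other 2 averaged 50 to 200 CPM, where 10.9% were, so 0 calls among 6 is near the share of all genes. Among effectors averaging at least 50 CPM, 1 of 9 was higher and 1 lower, with a median of 0.01, where 3.53% of all 3566 genes at that level were higher and 4.96% lower. Summed over the class, the effectors stood at 2406 CPM with IL-33 and 2441 CPM with PBS, a ratio of 0.986 (0.950 to 1.02). The GTPases summed to 2160 and 2156 CPM, a ratio of 1.002 (0.963 to 1.04). With CPM over the library total, neither summed ratio differed from 1 beyond counting error. Scaling by the trimmed mean of M-values (TMM) adds about 0.12 to each log2 fold. That shift would place the intervals of both summed ratios above 1, so this reading holds for the library total only. Samhd1 made up 1149 of the 2406 CPM and 1264 of the 2441 CPM of the effector sums, and the effectors without it stood at 1258 CPM with IL-33 and 1177 CPM with PBS, a ratio of 1.07 (1.01 to 1.13), which left out 1. No difference between the classes was tested, since members of the same 2 libraries are not replicates.

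**Figure D3:**
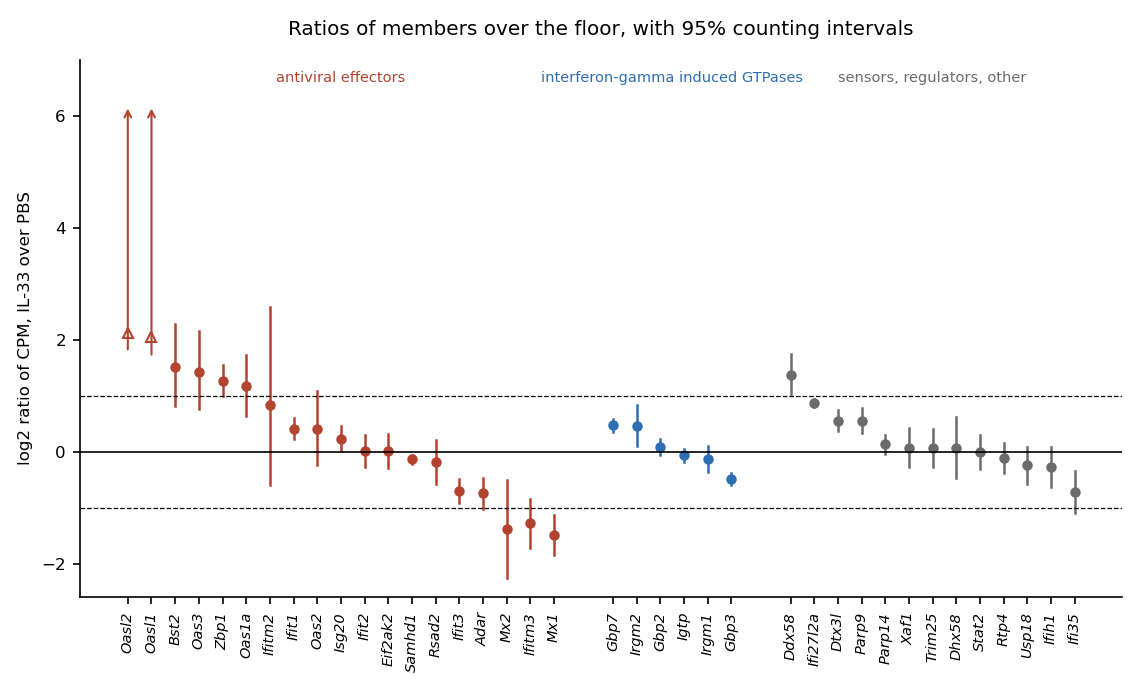
Log2 ratio of CPM, IL-33 over PBS, for the 38 members over the floor, by class and in order of their value, with exact 95% counting intervals. Dashed lines mark 2-fold, and open triangles with arrows mark Oasl1 and Oasl2 at their lower bound. The effectors reach past both dashed lines, and the 6 GTPases lie between them.

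Among the GTPases, the guanylate-binding protein genes Gbp7, Gbp3 and Gbp2 lie close together on chromosome 3 and differed in direction. Gbp7 (chromosome 3, 142530342 to 142550149) had 654 CPM with IL-33 and 471 CPM with PBS, a ratio of 1.39 (1.28 to 1.51). Gbp3 (142560026 to 142573209) had 451 CPM with IL-33 and 634 CPM with PBS, a ratio of 0.712 (0.659 to 0.770). Gbp2 (142620602 to 142638008) had 360 and 341 CPM, a ratio of 1.06 (0.956 to 1.17). The higher level was thus with IL-33 for Gbp7 and with PBS for Gbp3, both beyond counting error, while Gbp2 did not differ beyond it. Gbp2b, the neighbour between Gbp3 and Gbp2, is listed in the table under its older symbol Gbp1. It is no member, but it had 47.8 CPM with IL-33 and 123 CPM with PBS, a ratio of 0.388 (0.316 to 0.475), and was the only GTPase of the 20 listed that was lower at 2-fold.

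The immunity-related GTPase genes lie on chromosome 11. Their products Irgm1, Irgm2 and Igtp (also called Irgm3) are the regulators of the family, which keep the effector IRG proteins inactive on the cell's own membranes. Igtp (58199556 to 58207591) had 499 CPM with IL-33 and 522 CPM with PBS, a ratio of 0.957 (0.882 to 1.04). Irgm1 (48861968 to 48871683) had 124 and 137 CPM, a ratio of 0.909 (0.774 to 1.07). Irgm2 (58199618 to 58222782) had 70.8 and 51.5 CPM, a ratio of 1.38 (1.07 to 1.78). Irgm2 was the only one of the 3 beyond counting error. Its annotated exons overlap those of Igtp, and 10.1% of its 25-base stretches, the length of a read, also occur in Igtp transcripts, so reads could be split between them. Summed, Igtp and Irgm2 stood at 570 CPM with IL-33 and 573 CPM with PBS, a ratio of 0.995 (0.921 to 1.08). Igtp made up 499 of the 570 CPM and 522 of the 573 CPM, so the sum mostly follows Igtp.

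The OAS family, whose founding members make oligoadenylates that activate RNase L, had 4 of 5 genes higher at 2-fold. Oasl1 and Oasl2, which passed the floor through the IL-33 library and could only be called higher, are 2 of the 4. The OAS genes lie on chromosome 5, and all had a mean under 50 CPM, where calls are common. Of all genes, 56.7% of those averaging under 20 CPM and 30.9% of those at 20 to 50 CPM differed by 2-fold or more in either direction. Oas3 had 35.8 CPM with IL-33 and 13.3 CPM with PBS, a ratio of 2.68 (1.69 to 4.46). Oas1a had 49.99 and 22.2 CPM, a ratio of 2.25 (1.56 to 3.32). Oas2 had 21.8 and 16.5 CPM, a ratio of 1.32 (0.845 to 2.13), which held 1. Oasl1, known in mouse as a restraint on the translation of Irf7, and Oasl2 had 32 and 34 counts with IL-33 and 0 counts each with PBS. Against 3 counts with PBS they were at least 4.11-fold and at least 4.37-fold higher, and the lower 95% counting limits of their ratios were 3.16 and 3.37. Oas1a shares 72.4% of its 25-base stretches with its neighbour Oas1g. Summed with Oas1g it stood at 84.8 CPM with IL-33 and 44.5 CPM with PBS, a ratio of 1.91 (1.47 to 2.50), which is under 2-fold.

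The Mx genes, which lie on chromosome 16 and encode dynamin-like GTPases that block viral nucleocapsids, were lower with IL-33 at 2-fold. Mx1 (97447035 to 97462907) had 30.4 CPM with IL-33 and 85.1 CPM with PBS, a ratio of 0.357 (0.277 to 0.459). Mx2 had 24 counts in each library, which is 5.88 CPM with IL-33 and 15.3 CPM with PBS, a ratio of 0.386 (0.210 to 0.709). Its call was lost with a pseudocount of 5 CPM, at a log2 fold of -0.90. Summed, the pair had a ratio of 0.361 (0.287 to 0.455). In C57BL/6 mice the Mx1 gene is known to carry a deletion that makes its protein non-functional. Mx2 is annotated as a polymorphic pseudogene, so neither gene can be taken to encode a working protein here.

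The IFIT genes, whose products bind foreign RNA, form a cluster on chromosome 19 and did not share a direction. Ifit1 had 263 CPM with IL-33 and 198 CPM with PBS, a ratio of 1.33 (1.17 to 1.51). Ifit3 had 113 CPM with IL-33 and 185 CPM with PBS, a ratio of 0.612 (0.528 to 0.711). Ifit2 had 95.3 and 94.7 CPM, a ratio of 1.01 (0.831 to 1.22). Ifit1 and Ifit3 thus differed beyond counting error in opposite directions. Of the 25-base stretches of Ifit3, 66.1% also occur in Ifit3b, and the sum of both genes had a ratio of 0.592 (0.523 to 0.670), on the same side as Ifit3 alone. The IFIT genes together summed to 472 CPM with IL-33 and 478 CPM with PBS.

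Genes that restrict viruses at membranes were thinly counted and split. Bst2, which encodes tetherin, a tether of budding virions, had 34.3 CPM with IL-33 and 12.1 CPM with PBS, a ratio of 2.84 (1.75 to 4.86). Ifitm3, which encodes a barrier to viral fusion in endosomes, had 22.8 CPM with IL-33 and 55.3 CPM with PBS, a ratio of 0.412 (0.304 to 0.559). Ifitm2 had 23 and 5 counts, a ratio of 1.77 (0.660 to 5.97), and Ifitm1 had 3 and 1 counts, under the floor. Bst2 was thus higher and Ifitm3 lower, both at 2-fold. Ifitm2 shares 60.2% of its 25-base stretches with other genes, and 38.7% with Gm45717. Summed with Ifitm3 it had a ratio of 0.486 (0.367 to 0.646). Ifitm3 held 93 of the 116 counts of that sum with IL-33 and 87 of the 92 with PBS, so the sum follows Ifitm3. Ifitm3 is also expressed by myeloid cells and fibroblasts. Of the fibroblast markers, Col3a1 had 0 CPM with IL-33 and 49.6 CPM with PBS, and Dcn 0 and 15.3 CPM. Pdgfra had 0 and 2 counts, and Col1a1 and Col1a2 had 0 in both libraries. Of the 13 monocyte and macrophage markers 6 were higher in CPM with IL-33, 5 lower and 2 at 0 in both. The part of such cells in the Ifitm3 value was not tested.

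Effectors that act on nucleic acids and their building blocks included 1 higher gene, Zbp1, and 0 lower ones at 2-fold, where 15.5% of all genes were higher and 16.3% lower. Samhd1, a nucleotide hydrolase that starves reverse transcription, had 1149 CPM with IL-33 and 1264 CPM with PBS, a ratio of 0.909 (0.862 to 0.958). With TMM scaling its log2 fold of -0.14 became -0.02. Zbp1, a sensor of Z-form nucleic acids that can start necroptosis, had 195 CPM with IL-33 and 81.3 CPM with PBS, a ratio of 2.40 (1.99 to 2.92; chromosome 2, 173206612 to 173218923). Of the 25-base stretches of Zbp1, 0.511% occur in other genes. Adar, the RNA-editing enzyme that marks self double-stranded RNA, had 69.1 CPM with IL-33 and 116 CPM with PBS, a ratio of 0.598 (0.494 to 0.724). Samhd1 and Adar were thus lower and Zbp1 higher beyond counting error. Annotated exons of Adar overlap those of Chrnb2 over 16.8% of their length. Isg20, an RNA exonuclease, had 171 and 146 CPM, a ratio of 1.17 (1.01 to 1.37). Eif2ak2, the kinase PKR that stops translation on double-stranded RNA, had 81.1 and 80.7 CPM. Rsad2, which encodes viperin, had 45.8 and 52.1 CPM, a ratio of 0.879 (0.675 to 1.15). The interval of Isg20 lay just above 1, while Eif2ak2 and Rsad2 did not differ beyond counting error.

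Among the RNA sensors, 1 of 3 was past 2-fold. Of all genes, 10.9% of those averaging 50 to 200 CPM and 30.9% of those at 20 to 50 CPM were, in either direction. Ddx58, which encodes RIG-I, had 127 CPM with IL-33 and 48.9 CPM with PBS, a ratio of 2.60 (2.04 to 3.35; chromosome 4, 40203773 to 40239828). Ifih1, which encodes the sensor MDA5, had 52.0 and 62.9 CPM, a ratio of 0.826 (0.648 to 1.06). Dhx58, the related regulator LGP2, had 27.2 and 26.1 CPM, a ratio of 1.04 (0.724 to 1.53). Trim25, a ubiquitin ligase known to act on RIG-I, had 69.6 and 66.7 CPM, a ratio of 1.04 (0.831 to 1.32). Only Ddx58 was past 2-fold, and the intervals of the other 3 held 1. With Zbp1, Ddx58 was 1 of the 2 higher members among the 26 that averaged at least 50 CPM, and Mx1 was the 1 lower member.

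The ISG15 pathway was counted unevenly. Isg15, a ubiquitin-like modifier that is usually among the strongest interferon targets, had 4 counts with IL-33 and 5 with PBS, under the floor in both. Usp18, the protease that removes ISG15 and restrains the type I receptor, had 60.8 and 71.8 CPM, a ratio of 0.846 (0.675 to 1.07). Of the 25-base stretches of Isg15, 17.5% also occur in other genes' transcripts. Uba7, the activating enzyme of ISG15, had 127 CPM with IL-33 and 136 CPM with PBS, and Ube2l6, its conjugating enzyme, 28.2 and 23.5 CPM. Herc6, its main ligase in mouse, had 59.8 CPM with IL-33 and 85.8 CPM with PBS, a ratio of 0.697 (0.563 to 0.867). Per kilobase of annotated exon, Isg15 had 1.30 CPM per kb with IL-33 and 4.20 CPM per kb with PBS, against 19.0 and 20.3 CPM per kb for Uba7. As counted, Isg15 was thus below Uba7 in both libraries, but how reads were counted is not given.

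The transcription factor gene Stat2 had 80.9 CPM with IL-33 and 81.3 CPM with PBS, a ratio of 0.994 (0.808 to 1.23). The partners Dtx3l and Parp9, a ubiquitin ligase and an ADP-ribosyltransferase that work as a complex and lie head to head on chromosome 16, leaned higher together. Dtx3l had 284 CPM with IL-33 and 193 CPM with PBS, a ratio of 1.47 (1.29 to 1.67). Parp9 had 198 and 135 CPM, a ratio of 1.47 (1.26 to 1.71). Their annotated exons overlap over 8.00% of the length of Dtx3l and 9.40% of the length of Parp9. Parp14, a relative next to them, had 273 and 249 CPM, a ratio of 1.09 (0.975 to 1.23). Dtx3l and Parp9 were beyond counting error but within 2-fold, and Parp14 held 1.

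The remaining induced genes included Ifi27l2a, the member with the most counts with IL-33, while Samhd1 had the most with PBS. Ifi27l2a, a gene for a small interferon-induced protein, had 2033 CPM with IL-33 and 1113 CPM with PBS, a ratio of 1.83 (1.73 to 1.92; chromosome 12, 103442167 to 103443680). With TMM scaling its log2 fold of 0.87 became 0.99, just under the 2-fold line. Ifi35, which encodes a partner of NMI, had 37.5 CPM with IL-33 and 61.6 CPM with PBS, a ratio of 0.608 (0.469 to 0.793), and its exons overlap another annotated gene over 16.8% of their length. Rtp4, a receptor chaperone, had 95.3 and 104 CPM, and Xaf1, which encodes a binder of the apoptosis inhibitor XIAP, had 65.9 and 62.9 CPM. Both held 1 in their intervals. Ifi44 had 10 counts with IL-33 and 0 with PBS, under the floor. The 15 sensors, regulators and other genes summed to 3407 CPM with IL-33 and 2279 CPM with PBS, with Ifi27l2a as the largest part in both libraries, while their median log2 fold was 0.06.

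**Figure D4:**
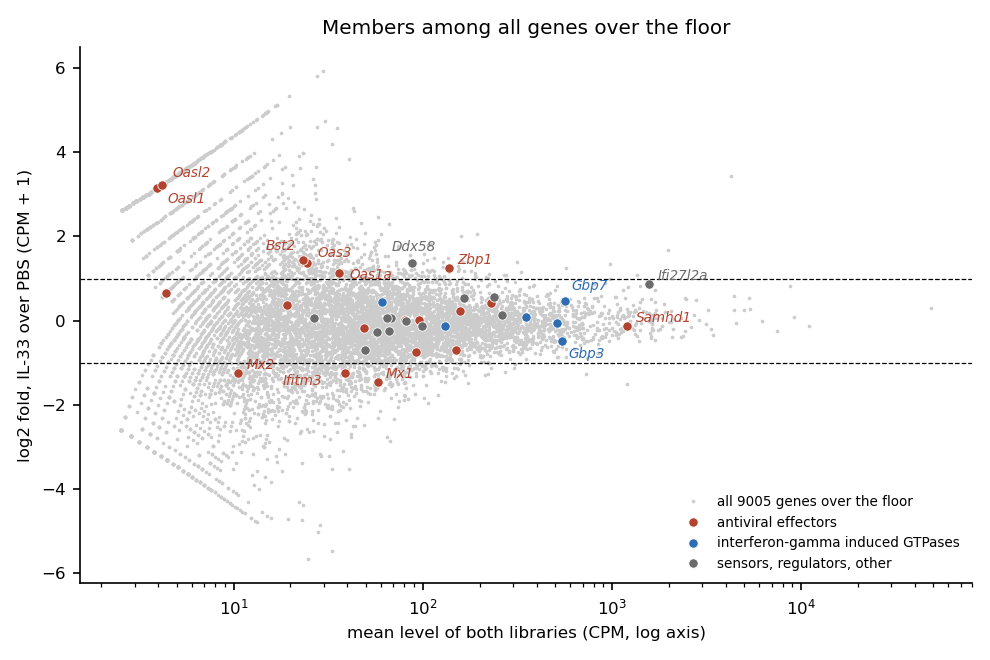
Log2 fold of IL-33 over PBS on CPM + 1 against the mean level of both libraries (log axis) for the 9005 genes over the floor (grey) and the 38 members over it, coloured by class. Dashed lines mark 2-fold. The scatter of all genes widens at low levels, where 7 of the 10 members called lie, and Zbp1, Ddx58 and Mx1 are the members called at an average of at least 50 CPM.

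Levels can be compared between genes once divided by length. Per kilobase of annotated exon, Ifi27l2a led with 4392 CPM per kb with IL-33 and 2405 CPM per kb with PBS, on an exon length of 463 bases. Igtp followed with 247 and 258 CPM per kb, then Gbp3 with 138 and 194 CPM per kb and Gbp2 with 143 and 136 CPM per kb. Samhd1, the first effector in this order, had 126 and 138 CPM per kb. The GTPases Igtp, Gbp3, Gbp2 and Gbp7 thus held 4 of the first 6 places among the 41 members by the mean of this level, and Oasl1, Oasl2, Ifitm1 and Ifi44 the last 4.

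The rest of the interferon pathway was read from a list of 73 further genes, of which 63 were over the floor. Of these, 6 (9.52%) were higher at 2-fold, where 15.5% of all genes were, and 4 (6.35%) lower, where 16.3% of all genes were, with a median log2 fold of 0.13. Of the 6, Trim21, Trim14 and Irgq passed the floor through the IL-33 library only. Transcripts of the interferons themselves were scarce: Ifng had 1 count with IL-33 and 0 with PBS, and the other 5 interferon genes had 0 in both. A count of 0 allows up to 0.735 CPM with IL-33 and 1.91 CPM with PBS. The receptor chain genes were present, with Ifngr1 at 1629 CPM with IL-33 and 1553 CPM with PBS and Ifnar1 at 175 and 205 CPM. Ifngr2, the signalling chain of the interferon-gamma receptor, was lower, with 13.2 CPM with IL-33 and 33.7 CPM with PBS, a ratio of 0.393 (0.264 to 0.585). The kinase gene Jak1 had 888 and 1041 CPM, and Jak2 258 and 241 CPM.

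Factors and targets in that list mostly lay within 2-fold. Irf1, a factor induced by interferon-gamma, had 180 CPM with IL-33 and 210 CPM with PBS. Irf2, a repressor and competitor of Irf1, was higher, with 157 and 68.0 CPM, a ratio of 2.31 (1.88 to 2.86). The feedback inhibitor Socs3 had 10.3 and 14.6 CPM, and Socs1 had 5 and 6 counts. Among other induced genes, Ly6e, a membrane protein gene, had 1311 and 1088 CPM and Ly6a, which encodes Sca-1, 770 and 562 CPM. The TRIM family genes Trim34a at 3.10 (2.11 to 4.69), Trim21 at 4.499 (1.97 to 12.7) and Trim14 at 3.34 (1.02 to 17.3) and the secreted protein gene Lgals3bp at 2.57 (2.01 to 3.31) were higher. Trim21 rested on 70 counts with IL-33 and 6 with PBS, and Trim14 on 26 and 3. Both passed the floor through the IL-33 library only, so they could not be called lower. Parp12 at 0.404 (0.257 to 0.636) and Ifi204, a DNA sensor gene, at 0.343 (0.227 to 0.515) were lower. Among all 20 GTPases listed, members included, 19 were over the floor, 17 lay within 2-fold and their median log2 fold was 0.08, with Ifi47 at 350 and 376 CPM and Gbp6 at 295 and 287 CPM the highest in CPM among the non-members. The exceptions were Gbp2b and Irgq, a distant IRG relative with 113 counts with IL-33 and 2 with PBS, a ratio of 21.8 (5.89 to 182). Irgq passed the floor through the IL-33 library only, so it could not be called lower.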

How the data were processed

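RNA of sorted Treg cells was measured in 1 library per treatment. The authors deposited raw counts, whole numbers per gene symbol. Per the submitters' processing notes, TopHat2 2.0.10, Cufflinks 2.2.1 and the mm10 genome were used; how reads were counted, on which annotation and whether by strand is not given in the sources used here, so reads of overlapping or antisense genes cannot be told apart. There were 0 unused columns.

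From the counts, CPM was computed over the library total. Genes reaching 5 CPM in either library were compared at 2-fold on log2(CPM + 1), which understates folds of low genes. Ratios of CPM carry exact conditional (Clopper-Pearson) 95% intervals. A fold against 0 counts is a bound against 3 counts in that library. With 1 library per group no p-value was computed. TMM and median-of-ratios scaling, pseudocounts, floors and a 1.5-fold threshold were tried. Positions, exon lengths, overlaps and shared 25-base stretches came from GENCODE M21 (GRCm38, the assembly of mm10), and older symbols from RefSeq. Members and lists were chosen with earlier results of these data known. All members may be named; of other pathway genes, those called with an interval leaving out 1 and the 2 with the highest CPM per role, and of each marker list the 2 with the highest CPM. Uba7, Ube2l6, Herc6, Ifit3b, Oas1g, Foxp3, Cd68, Fcgr1, Dcn, Pdgfra, Col1a1 and Col1a2 were named outside this rule with their values known. A few genes under the rule are not reported here. The code was tested on simulated data. Scaling factors came from edgeR 4.0.16 and DESeq2 1.42.0 in R 4.3.3, intervals from scipy 1.17.1 and tables from pandas 2.3.3 in Python 3.11.15.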

Additional observations from a re-analysis of the deposited data

How the results depend on the processing

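No paired analysis was possible because each group held 1 library and the labels give no replicate numbers. TMM scaling adds about 0.12 to each log2 fold and median-of-ratios scaling 0.11, so the sign of a member within that distance of 0 can depend on the scaling. Of the recomputed counts of genes and median log2 folds, 125 held and 13 moved. A count held if it changed by at most 1.5-fold, and a median if it kept its sign and moved within a typical counting error. Summed levels were not recomputed, but either shift would place the intervals of the summed effector and GTPase ratios above 1. Whether these class sums differed from 1 therefore depends on the scaling. With TMM scaling, 16 members had a counting interval above 1 and 7 below it, against 14 and 8 without it. With no floor, 2 sensors or regulators were higher and 1 lower. At a mean of 50 CPM or more, 2 members were higher and 1 lower (1 and 1 among the effectors), as were 2 and 1 other pathway genes, because fewer genes are compared. At a 1.5-fold threshold, 6 members were lower, 5 of them effectors, and of the sensors and regulators 2 were higher and 1 lower. With Mx1 and Mx2 counted among the GTPases, the GTPase median was -0.10, a change of sign from 0.01. Pairs of related genes were summed, an alternative chosen after seeing the data. Oas1a with Oas1g was under 2-fold at a log2 fold of 0.92. Ifitm2, at 0.67 alone, stood at -1.01 with Ifitm3, and Irgm2, at 0.45 alone, at -0.01 with Igtp. Ifitm3 and Igtp held most counts of these sums. The sums therefore follow Ifitm3 and Igtp and decide nothing on Ifitm2 or Irgm2. Depth limits genes under a mean of 20 CPM, where 56.7% of all genes differed by 2-fold.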
